A study of Mus musculus and Rattus norvegicus with 24 samples.

Results

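Ctrl mouse hearts 7 days after TAC were compared with ctrl mouse hearts after sham surgery, gene by gene. TAC, transverse aortic constriction, narrows the aorta so that the left ventricle pumps against a raised pressure, and in sham surgery the aorta is not narrowed. All libraries with these labels were taken, 3 of ctrl TAC 7 d and 3 of ctrl sham, out of 18 mouse heart libraries and 24 libraries in the whole series. The other groups used below are ctrl hearts 3 days after TAC, and hearts titled cKO after sham and 7 days after TAC, with 3 libraries each. The genotype is given only as ctrl or cKO. The series title names ATF4, but one label of the cKO libraries speaks of ATF4 overexpression. No allele, Cre driver, strain, sex or age is stated in the sources used here. Nothing in the labels says that the libraries came from separate animals, so each p-value measures only the spread between these libraries, which may be technical. Of 54532 genes in the table, 15535 had enough reads to be tested.

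Pressure overload makes heart muscle cells enlarge rather than divide, and they take up again a set of genes that are otherwise active in the fetal heart, such as natriuretic peptides, skeletal muscle actin and the beta myosin heavy chain. Fibroblasts become activated and lay down matrix, macrophages accumulate, and the muscle cells come to depend less on fatty acids. In heart RNA all these cells are read together, so fewer cells of a type and less RNA per cell cannot be told apart.

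One library was at odds with its label in a pair of neighbouring genes. Cacna1i, a T-type calcium channel gene close to Atf4 on chromosome 15, had 0, 0.0653 and 0.191 CPM (read counts relative to the TMM-scaled library size) in the ctrl TAC 7 d libraries and 0.201, 0.256 and 24.6 CPM in the ctrl sham libraries. The high value is that of the library labelled ctrl sham replicate 3, and the cKO sham libraries had 27.3, 26.9 and 29.5 CPM. Atf4 itself, a transcription factor of the amino acid stress response, had 70.5, 79.9 and 70.3 CPM after TAC, against 66.2, 68.8 and 34.3 CPM after sham, and 21, 26.3 and 23.2 CPM in the cKO sham libraries. In both genes the library labelled ctrl sham replicate 3 lay with or near the cKO sham libraries and apart from the other 2 ctrl sham libraries. Over all tested genes its Pearson correlation in log2(CPM + 1) with ctrl sham replicates 1 and 2 was 0.9925 and 0.9919. With the cKO sham libraries it was 0.9919, 0.9917 and 0.9881. Ctrl sham replicates 1 and 2 had 0.9921 with each other, and 0.9917 and 0.9916 with cKO sham replicate 1. Such correlations were nearly as high between the groups as within them, so they cannot place the library. Its group is not settled by these values, so the count of each gene list is also given without it wherever that count changed. Of the 129 called genes named below, 23, 51 and 65 kept their call without ctrl sham replicates 1, 2 and 3 in that order. The Cacna1i difference (log2 fold change -6.55 ± 1.68 (SE), adjusted p = 0.0284) rested on the library labelled replicate 3: without that library the log2 fold change was -1.40, adjusted p = 0.582. For Atf4 the log2 fold change was 0.38 ± 0.18 (adjusted p = 0.201), and 0.12, adjusted p = 0.554 without it.

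The 6 libraries held 15166834 to 17703165 counts each. Mitochondrial transcripts took 19.5% to 22.3% of the counts after TAC and 21.8% to 23.0% after sham. Defining markers of atrial muscle were nearly absent, with at most 5 counts of Sln, Myl7, Bmp10 or Upk1b in any of the 6 libraries, and skeletal muscle myosins (Myh1, Myh2, Myh4) had at most 2. Cardiomyocyte markers summed to 74152 to 84309.9 CPM after TAC, against 77677 to 85513 CPM after sham, and none of the 12 passed the test.

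At 7 days, 1132 of 15535 genes differed between TAC and sham at an adjusted p under 0.05 (edgeR's quasi-likelihood test on all 18 mouse libraries, Benjamini-Hochberg adjustment). That is 7.29% of the genes tested. Of them 662 were higher after TAC, 4.26% of all tested, and 470 were lower, 3.03%. At least a 2-fold rise was seen in 261 called genes and at least a 2-fold fall in 91. The 3 TAC and 3 sham libraries did not overlap in 5561 of the 15535 tested genes (35.8%). Of the 1132 called genes this held for 1130, so it adds little to a call. The median log2 fold change of all tested genes was -0.0012. The library labelled ctrl sham replicate 3 mattered for the count: without it 494 genes were called (3.18%), 307 higher (1.98%) and 187 lower (1.2%), and 476 of these were among the 1132. There were 105 calls without ctrl sham replicate 1, 373 without ctrl sham replicate 2, and 231, 382 and 905 without ctrl TAC 7 d replicates 1, 2 and 3. In all 6 of these fits 95 genes were called. Scaling by library size alone turned the share of higher genes among the called from 58.5% to 75.3%, with the median of all genes at 0.07, and removing a trend with gene length turned it to 43.9%.

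Groups of genes moved unequally. Counts of called members below stand against 4.26% higher and 3.03% lower among all tested genes. Without the library labelled ctrl sham replicate 3 these shares were 1.98% and 1.2%. Among the 40 gene lists examined, mitosis genes and the fetal gene program had the highest medians, followed by DNA replication, interferon-stimulated genes and matrix. The lowest medians were those of the circadian clock, potassium channels and adult cardiomyocyte genes, all below 0 but above -0.5 on the log2 scale.

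**Figure D1:**
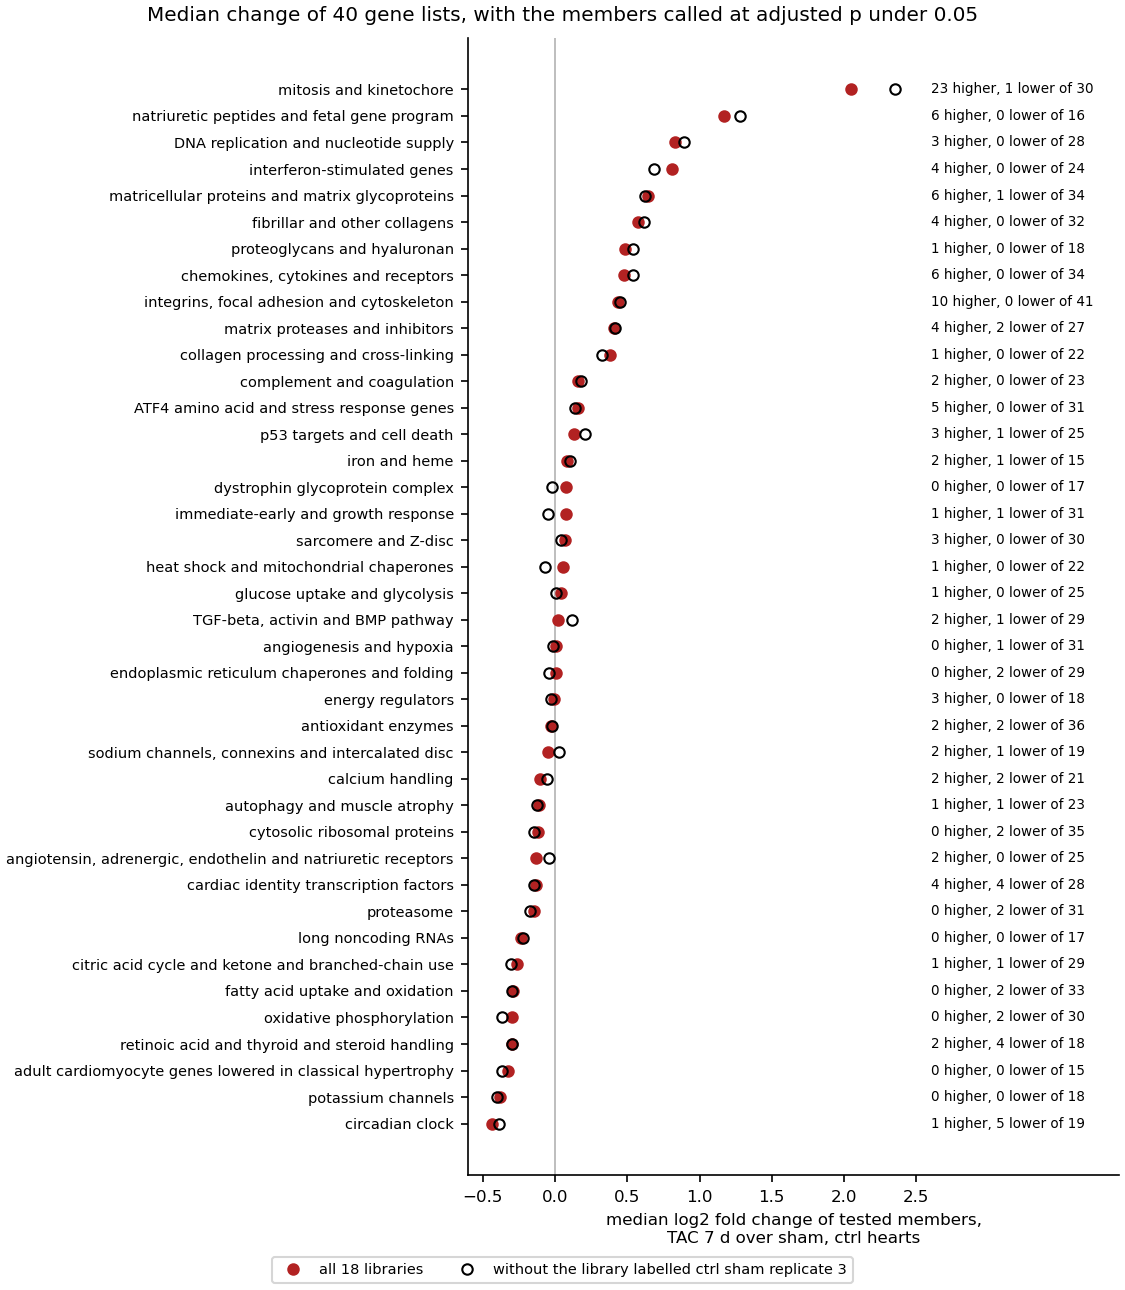
Median log2 fold change of the tested members of each of 40 gene lists (x axis, TAC 7 d over sham, ctrl hearts), filled with all 18 libraries and open when the library labelled ctrl sham replicate 3 is left out, and at the right the number of members called. Mitosis genes stand furthest to the right at a median of 2.05, and no list has a median below -0.5.

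Part of the fetal gene program rose at 7 days, with skeletal muscle actin furthest. In that list 6 of 16 tested members rose and 0 fell, against 4.26% and 3.03% of all genes. Its median log2 fold change was 1.17. The windows of 300 bases around the start sites of its Acta1 and Nppb genes are shown because they are its skeletal muscle actin and B-type natriuretic peptide, a textbook pair of this program. They are from RefSeq on GRCm38.p6, read in the direction of the gene, and start 250 bases before the annotated start. Capitals mark 4 motifs, which are the MCAT element with the letters CATTCC, the CArG box, the GATA motif with the letters GATAA and the TATA box with the letters TATAAA, all searched on both strands.
Acta1, chr8:123894726-123895025, minus strand: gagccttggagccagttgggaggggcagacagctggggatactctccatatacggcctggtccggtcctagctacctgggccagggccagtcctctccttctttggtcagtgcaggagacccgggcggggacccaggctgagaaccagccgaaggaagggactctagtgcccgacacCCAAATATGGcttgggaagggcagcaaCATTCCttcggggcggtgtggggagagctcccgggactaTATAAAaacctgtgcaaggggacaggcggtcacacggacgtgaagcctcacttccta
Nppb, chr4:147985650-147985949, plus strand: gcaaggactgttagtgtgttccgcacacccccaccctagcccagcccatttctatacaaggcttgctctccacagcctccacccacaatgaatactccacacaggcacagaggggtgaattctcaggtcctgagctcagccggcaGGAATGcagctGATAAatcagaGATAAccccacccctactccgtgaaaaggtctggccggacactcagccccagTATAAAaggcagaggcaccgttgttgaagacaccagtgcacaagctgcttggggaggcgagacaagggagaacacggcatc
The Acta1 window holds a CArG box, the core letters bound by serum response factor, an MCAT element, the letters bound by TEAD factors, and a TATA box. The Nppb window holds an MCAT element on the opposite strand, a pair of GATA motifs and a TATA box. Of the 14 members of the list with a window, 6 (42.9%) held an MCAT element, against 14.6% of the 27025 genes with a window. GATA motifs were in 5 of 14 (35.7%), against 25.8% of all genes, and a TATA box in 4 of 14 (28.6%), against 14.2%. A CArG box was in 1 of 14 (7.14%), that of Acta1, against 1.57%. These are matches of letters, not sites shown to be bound.

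Acta1, skeletal muscle alpha-actin (chromosome 8, 123891769 to 123894751, GRCm38), had 3474, 2509.9 and 1382 CPM after TAC, against 186, 292 and 191 CPM after sham. All 3 TAC libraries lay far above all sham libraries. It was an 11-fold rise (log2 fold change 3.46 ± 0.44 (SE), adjusted p = 0.00127), and it was called in every fit that left out 1 of the 6 libraries. Nppb, B-type natriuretic peptide (chromosome 4, 147985788 to 147987205), had 878, 545 and 457 CPM after TAC, against 196, 199 and 155 CPM after sham, again with no overlap (log2 fold change 1.77 ± 0.46 (SE), adjusted p = 0.0292). Ankrd1, a stress-responsive ankyrin repeat protein of the sarcomere, had 4714, 1460.3 and 2987 CPM after TAC, against 1110.1, 815 and 1363 CPM after sham (log2 fold change 1.48 ± 0.41 (SE), adjusted p = 0.0389). Here TAC replicate 2 was only just above the highest sham library. Rcan1, an inhibitor of calcineurin that calcineurin itself induces, had 288, 201 and 152 CPM after TAC, against 67, 76.8 and 61.9 CPM after sham (log2 fold change 1.64 ± 0.36 (SE), adjusted p = 0.0158). Xirp2, an actin-binding protein of the intercalated disc, had 1489, 987 and 944 CPM after TAC, against 372, 415 and 401 CPM after sham (log2 fold change 1.53 ± 0.42 (SE), adjusted p = 0.0391). Mybpc2, the fast skeletal form of myosin-binding protein C, had 78, 39.8 and 63.4 CPM after TAC, against 15, 18.3 and 16.9 CPM after sham (log2 fold change 1.85 ± 0.42 (SE), adjusted p = 0.0171). In these 4 genes too the groups were separate. Without the library labelled ctrl sham replicate 3, Acta1 was the list's only call (log2 fold change 3.36, adjusted p = 0.0120), while the list's median was 1.28 and Nppb stood at 1.66, adjusted p = 0.0949.

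Other classical members did not pass. When the 6 libraries were fitted alone, 11 members of the fetal list were called higher and 0 lower. That fit called 17.9% of its 14366 genes, 1392 higher and 1177 lower. Nppa, atrial natriuretic peptide, had 501, 228 and 218 CPM after TAC, against 142, 124 and 177 CPM after sham (log2 fold change 1.10 ± 0.57 (SE), adjusted p = 0.248). Myh7, the beta myosin heavy chain, had 914, 479 and 1274 CPM after TAC, against 361, 356 and 414 CPM after sham (log2 fold change 1.24 ± 0.57 (SE), adjusted p = 0.189). In both genes every TAC library was above every sham library, but TAC replicate 1 for Nppa and replicate 3 for Myh7 set much of the difference. Nmrk2, a nicotinamide riboside kinase, had 25.3, 24.4 and 17.5 CPM after TAC, against 2.94, 4.74 and 5.36 CPM after sham (log2 fold change 2.36 ± 0.82 (SE), adjusted p = 0.0880). Myh6, the alpha myosin heavy chain of the adult mouse heart, had 32359, 33536 and 37001 CPM after TAC, against 33090.4, 37304 and 33775 CPM after sham, a log2 fold change of -0.02 ± 0.28, with overlapping groups. Atp2a2, the SERCA2 calcium pump, had 12145, 13987 and 14030.5 CPM after TAC, against 15503, 16282 and 15493 CPM after sham (log2 fold change -0.24 ± 0.28 (SE), adjusted p = 0.651), all TAC libraries lying below the sham libraries without passing the test.

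**Figure D2:**
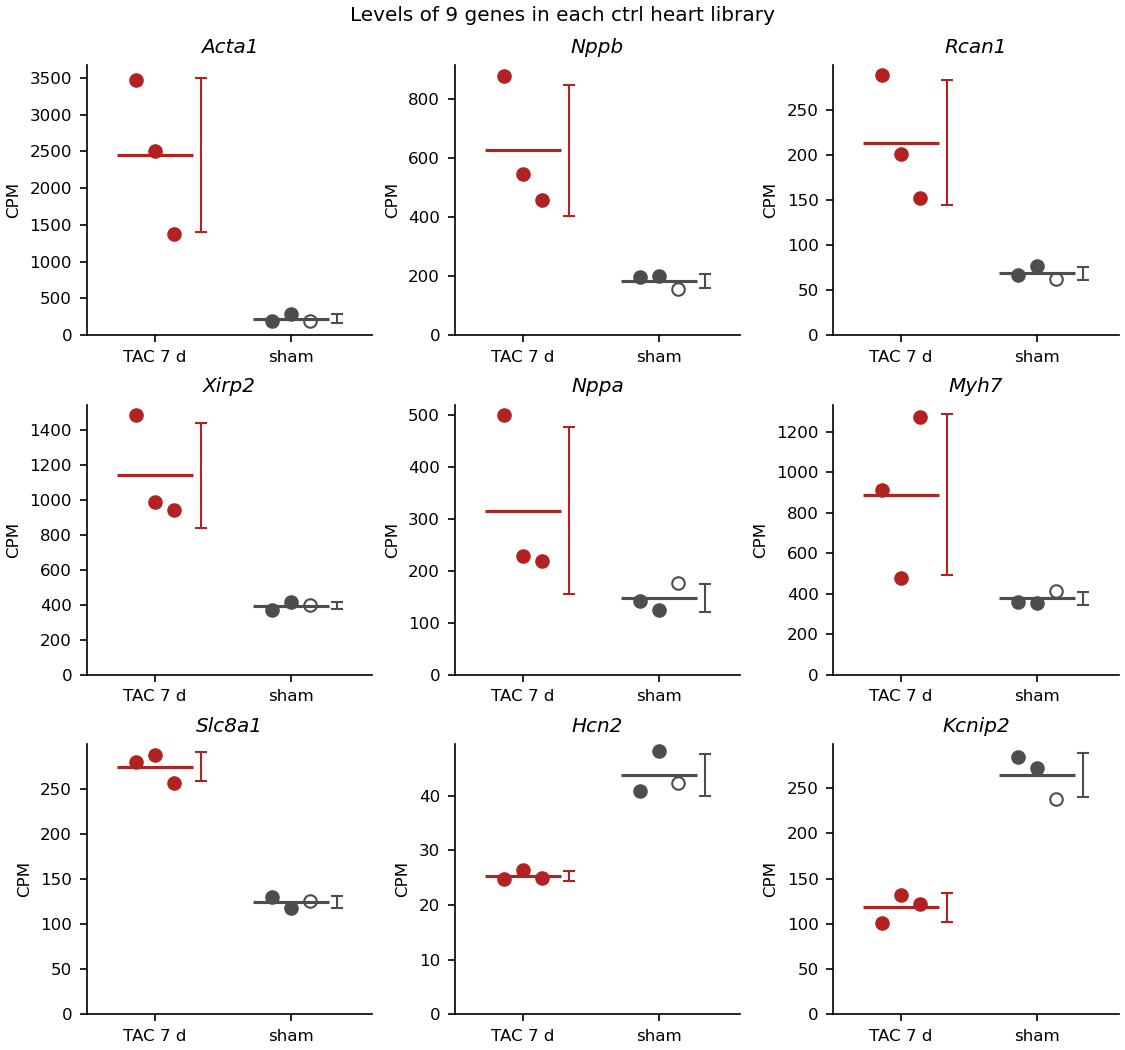
Levels of 9 genes in CPM (y axis, from 0) in each ctrl library, TAC 7 d in red at the left and sham in grey at the right. Points are libraries, lines the means and bars the SD of 3 libraries, and the open grey point is the library labelled ctrl sham replicate 3. All TAC libraries lie above the sham libraries for 7 genes and below them for Hcn2 and Kcnip2, and the spread within TAC is widest for Acta1, Nppa and Myh7.

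Some genes that move calcium and current across the muscle cell membrane rose and others fell. Slc8a1, the cardiac sodium-calcium exchanger, had 280.0, 288 and 257 CPM after TAC, against 131, 118 and 126 CPM after sham (log2 fold change 1.14 ± 0.26 (SE), adjusted p = 0.0174). Atp2b4, a plasma membrane calcium pump, had 49.98, 50.2 and 34.2 CPM after TAC, against 24.9, 24.1 and 26.2 CPM after sham (log2 fold change 0.84 ± 0.16 (SE), adjusted p = 0.00937). Both genes were higher in all TAC libraries than in any sham library; without the library labelled ctrl sham replicate 3 the adjusted p was 0.0538 for Slc8a1 and 0.0314 for Atp2b4. The T-type calcium channels Cacna1g and Cacna1h fell. Cacna1g had 14.7, 16.5 and 16.8 CPM after TAC, against 28.7, 33 and 39.3 CPM after sham (log2 fold change -1.07 ± 0.26 (SE), adjusted p = 0.0232). Cacna1h had 8.68, 15.8 and 12 CPM after TAC, against 19.2, 21.8 and 26.2 CPM after sham (log2 fold change -0.89 ± 0.25 (SE), adjusted p = 0.0443). In the calcium handling list as a whole 2 of 21 tested members rose and 2 fell, with a median of -0.10 (1 higher and 0 lower without the library labelled ctrl sham replicate 3, median -0.06). Ryr2, the calcium release channel, came next after these in log2 fold change but did not pass, at 1495, 1976 and 1414 CPM after TAC, against 1230.4, 1304 and 1176 CPM after sham (log2 fold change 0.40 ± 0.16 (SE), adjusted p = 0.131).

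Hcn2, a pacemaker channel subunit, had 24.7, 26.3 and 25 CPM after TAC, against 40.8, 48.2 and 42.4 CPM after sham (log2 fold change -0.79 ± 0.15 (SE), adjusted p = 0.00878). It was lower in every TAC library than in any sham library, and its call held without the library labelled ctrl sham replicate 3 (-0.81, adjusted p = 0.0288). Of sodium channels, connexins and intercalated disc genes, 2 of 19 tested members rose and 1 fell (median -0.05), and 1 rose and 1 fell without the library labelled ctrl sham replicate 3. None of 18 potassium channel genes passed in either direction, although 15 of them had a log2 fold change below 0 and their median was -0.38. The lowest of them, Kcnip2, the subunit that carries the transient outward current with Kv4 channels, had 101, 132 and 122 CPM after TAC, against 285, 272 and 238 CPM after sham (log2 fold change -1.16 ± 0.35 (SE), adjusted p = 0.0554). It missed the threshold here and when the library labelled ctrl sham replicate 3 was left out (-1.24, adjusted p = 0.0904). Its groups did not overlap, which was so for 35.8% of all tested genes. It passed when the 6 libraries were fitted alone (adjusted p = 0.000505). That fit called 17.9% of its 14366 genes, 1392 higher and 1177 lower, and of these channels 6 lower and 0 higher. None of the 15 adult cardiomyocyte genes of the hypertrophy list passed either (median -0.33). Of these 14 had a log2 fold change below 0, and with the 6 libraries alone 7 were called lower and 1 higher.

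In the sarcomere and Z-disc list 3 of 30 tested members rose and 0 fell (median 0.07), against 4.26% and 3.03% of all genes. The risers were cytoskeletal partners of the sarcomere. Flnc, filamin C, had 1345, 905 and 1099 CPM after TAC, against 455, 627 and 504 CPM after sham (log2 fold change 1.08 ± 0.27 (SE), adjusted p = 0.0250). Synpo2l, a Z-disc protein, had 827, 314 and 420.0 CPM after TAC, against 213, 196 and 204 CPM after sham (log2 fold change 1.35 ± 0.38 (SE), adjusted p = 0.0403). Tpm4, a non-muscle tropomyosin, had 170.1, 143 and 130.0 CPM after TAC, against 85, 86.4 and 104 CPM after sham (log2 fold change 0.69 ± 0.15 (SE), adjusted p = 0.0152), and of these 3 it alone was called without the library labelled ctrl sham replicate 3 (adjusted p = 0.0314). The highest and the lowest log2 fold change of the list did not pass. Myot, myotilin, had 104, 97.9 and 111 CPM after TAC, against 26, 49.2 and 33.8 CPM after sham (log2 fold change 1.52 ± 0.56 (SE), adjusted p = 0.104). Tcap, telethonin, had 1057, 964 and 1607 CPM after TAC, against 2479, 2024 and 2422 CPM after sham (log2 fold change -0.93 ± 0.31 (SE), adjusted p = 0.0738).

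Most energy genes had log2 fold changes slightly below 0 and few passed. The medians were -0.29 for 33 genes of fatty acid uptake and oxidation, -0.30 for 30 of oxidative phosphorylation and -0.27 for 29 of the citric acid cycle and of ketone and branched-chain use. In the first 0 of 33 tested members rose and 2 fell, in the second 0 of 30 tested members rose and 2 fell, and in the third 1 of 29 tested members rose and 1 fell. Of all genes 4.26% were higher and 3.03% lower. A log2 fold change below 0 was seen in 32, 30 and 26 members of the 3 lists in that order. When the 6 libraries were fitted alone, 14, 13 and 11 members were called lower. That fit called 17.9% of its 14366 genes, 1392 higher and 1177 lower. Slc27a1, a fatty acid transporter, had 121, 157 and 188 CPM after TAC, against 288, 262 and 278 CPM after sham (log2 fold change -0.83 ± 0.19 (SE), adjusted p = 0.0191). Cox6c, a subunit of cytochrome c oxidase, had 395, 417 and 537 CPM after TAC, against 792, 727 and 749.7 CPM after sham (log2 fold change -0.75 ± 0.19 (SE), adjusted p = 0.0282). Both genes were lower in every TAC library than in any sham library. No member of the 3 lists was called without the library labelled ctrl sham replicate 3.

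Some regulators of energy genes went the other way. Ppargc1b, a coactivator of mitochondrial genes, had 19.4, 32.6 and 23 CPM after TAC, against 8.15, 12.7 and 9.95 CPM after sham (log2 fold change 1.28 ± 0.22 (SE), adjusted p = 0.00567). Ppara, the nuclear receptor of fatty acid oxidation, had 25.5, 47.6 and 41.1 CPM after TAC, against 20.9, 23.5 and 15 CPM after sham (log2 fold change 0.94 ± 0.25 (SE), adjusted p = 0.0324). Bdh1, which oxidises the ketone body beta-hydroxybutyrate, had 233, 313 and 196 CPM after TAC, against 109, 146 and 101 CPM after sham (log2 fold change 1.06 ± 0.29 (SE), adjusted p = 0.0400). All 3 genes had every TAC library above every sham library. Ppargc1b kept its call without the library labelled ctrl sham replicate 3 (1.26, adjusted p = 0.0288), while Ppara and Bdh1 did not (adjusted p = 0.118 and 0.124). Among energy regulators 3 of 18 tested members rose and 0 fell (median -0.01), the third being the corepressor Ncor1 (0.45), and Ppargc1b was the 1 call of the list without the library labelled ctrl sham replicate 3. Of the glycolysis list 1 of 25 tested members rose and 0 fell (median 0.04). The member that rose was Pfkp, the platelet form of phosphofructokinase, at 158, 128 and 114 CPM after TAC, against 59, 60.9 and 58.3 CPM after sham (log2 fold change 1.17 ± 0.23 (SE), adjusted p = 0.0104).

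Retinoic acid genes changed in opposite directions along the pathway. Cyp26b1, which degrades retinoic acid (chromosome 6, 84571414 to 84593908), had 2.89, 8.23 and 6.88 CPM after TAC, against 70.2, 101 and 35.7 CPM after sham. The library labelled ctrl sham replicate 3 was the lowest sham library, and still above every TAC library. With it Cyp26b1 fell by 3.53 on the log2 scale ± 0.64 (adjusted p = 0.00788), the largest fall among called genes after that of Cacna1i, and without it the log2 fold change was -3.85, adjusted p = 0.0145. Aldh1a2, which makes retinoic acid, had 28.3, 8.49 and 13.3 CPM after TAC, against 3.48, 2.63 and 2.2 CPM after sham (log2 fold change 2.60 ± 0.51 (SE), adjusted p = 0.0105). Dhrs3, which reduces retinaldehyde back to retinol, had 42.4, 43 and 51 CPM after TAC, against 74.3, 76.4 and 62.2 CPM after sham (log2 fold change -0.64 ± 0.14 (SE), adjusted p = 0.0139). Dio2, which activates thyroid hormone, had 9.57, 4.9 and 2.55 CPM after TAC, against 1.27, 0.897 and 0.969 CPM after sham (log2 fold change 2.44 ± 0.54 (SE), adjusted p = 0.0161). In these 3 genes too the groups were apart. In the list of retinoid, thyroid and steroid handling 2 of 18 tested members rose and 4 fell, with a median of -0.30 (1 higher and 3 lower without the library labelled ctrl sham replicate 3, median -0.29).

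Cardiac transcription factors split evenly: 4 of 28 tested members rose and 4 fell (median -0.14), against 4.26% and 3.03% of all genes. Tead1, a factor that binds MCAT elements, had 234, 278 and 218 CPM after TAC, against 146, 156 and 157 CPM after sham (log2 fold change 0.67 ± 0.14 (SE), adjusted p = 0.0114). Myocd, a coactivator of serum response factor, had 47.4, 67.1 and 52.3 CPM after TAC, against 31.7, 32.5 and 34.7 CPM after sham (log2 fold change 0.75 ± 0.16 (SE), adjusted p = 0.0150). Tbx20 and Mef2c also rose, at log2 fold changes of 0.62 and 0.37. On the other side, Tbx5, a T-box factor of heart development, had 17.4, 23.4 and 24.4 CPM after TAC, against 34.8, 31 and 33.1 CPM after sham (log2 fold change -0.60 ± 0.12 (SE), adjusted p = 0.0110). Irx3 (-0.65) and Hopx (-0.98) fell as well, and so did Irx5, which had 9.91, 11.8 and 14.2 CPM after TAC, against 22.8, 15.6 and 21.7 CPM after sham (log2 fold change -0.74 ± 0.17 (SE), adjusted p = 0.0176). Without the library labelled ctrl sham replicate 3, 2 of the list rose and 1 fell.

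Of the circadian clock list 1 of 19 tested members rose and 5 fell (median -0.44), against 4.26% and 3.03% of all genes. The repressors Per1 (-0.96), Per2 (-1.03) and Cry2 (-0.50) and the output factors Tef (-0.64) and Hlf fell, while Arntl, which encodes the activator BMAL1, rose. Hlf had 20.3, 25.1 and 26.6 CPM after TAC, against 63.8, 53.8 and 67.5 CPM after sham (log2 fold change -1.36 ± 0.36 (SE), adjusted p = 0.0302). Arntl had 5.9, 9.08 and 7.96 CPM after TAC, against 1.74, 2.5 and 2.26 CPM after sham (log2 fold change 1.81 ± 0.53 (SE), adjusted p = 0.0467). Neither gene's groups overlapped, and no clock gene was called without the library labelled ctrl sham replicate 3 (median -0.39). At what hour the hearts were taken is not stated in the sources.

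Cell division genes had the highest median and the largest share of called members among the 40 lists. In the mitosis and kinetochore list 23 of 30 tested members rose and 1 fell, with a median log2 fold change of 2.05, against 4.26% higher and 3.03% lower among all genes. Without the library labelled ctrl sham replicate 3, 15 rose, against 1.98% of all genes, and 0 fell. The start-site windows of Bub1b and Racgap1, the called members with the smallest adjusted p, are shown with 2 elements typical of genes expressed late in the cell cycle. Capitals mark the cell cycle homology region or CHR, with the letters TTTGAA, and the CCAAT box, which its name spells, searched on both strands in windows from RefSeq on GRCm38.p6.
Bub1b, chr2:118597961-118598260, plus strand: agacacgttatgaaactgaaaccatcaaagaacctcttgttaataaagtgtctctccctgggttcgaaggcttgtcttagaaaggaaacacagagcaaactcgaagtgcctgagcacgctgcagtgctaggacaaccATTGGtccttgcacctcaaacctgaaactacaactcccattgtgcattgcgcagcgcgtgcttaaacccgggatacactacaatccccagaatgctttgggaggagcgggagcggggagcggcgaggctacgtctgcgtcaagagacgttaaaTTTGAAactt
Racgap1, chr15:99651607-99651906, minus strand: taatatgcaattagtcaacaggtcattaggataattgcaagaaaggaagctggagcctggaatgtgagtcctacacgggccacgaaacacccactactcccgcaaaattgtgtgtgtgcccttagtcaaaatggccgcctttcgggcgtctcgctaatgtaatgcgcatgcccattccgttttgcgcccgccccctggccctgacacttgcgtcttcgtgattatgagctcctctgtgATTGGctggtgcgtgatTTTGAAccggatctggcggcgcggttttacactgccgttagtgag
Both windows hold a CHR just after the annotated start and a CCAAT box on the opposite strand before it. Of the 26 list members with a window, 21 (80.8%) held a CHR, against 18.1% of all 27025 genes, and 21 (80.8%) held a CCAAT box, against 37.9%. Cenpf, the member that fell, holds both. A match of letters is a description and no site of binding.

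Bub1b, a spindle checkpoint kinase, had 6.01, 5.88 and 3.7 CPM after TAC, against 1.34, 0.961 and 1.49 CPM after sham (log2 fold change 2.04 ± 0.38 (SE), adjusted p = 0.00878). Racgap1, needed for cytokinesis, had 9.63, 7.45 and 5.29 CPM after TAC, against 1.8, 1.67 and 2.26 CPM after sham (log2 fold change 1.96 ± 0.36 (SE), adjusted p = 0.00870). Each TAC library lay well above all sham libraries for both. Anln, anillin of the cleavage furrow, had 10.4, 7.38 and 5.99 CPM after TAC, against 1.94, 1.6 and 2.2 CPM after sham (log2 fold change 2.05 ± 0.40 (SE), adjusted p = 0.0105). Mki67, the Ki-67 antigen, had 30.7, 21.6 and 14.5 CPM after TAC, against 2.87, 2.31 and 4.71 CPM after sham (log2 fold change 2.75 ± 0.54 (SE), adjusted p = 0.0105). In all 4 genes the groups were separate, and TAC replicate 3 was the lowest of the TAC libraries. Ccnb1, cyclin B1, had 4.56, 2.35 and 1.47 CPM after TAC, against 0.201, 0.064 and 0.646 CPM after sham (log2 fold change 3.18 ± 0.74 (SE), adjusted p = 0.0192), a gene with few reads in sham. Spag5, a spindle protein outside the list, had 6.29, 4.83 and 2.49 CPM after TAC, against 0.535, 0.448 and 0.71 CPM after sham (log2 fold change 2.99 ± 0.60 (SE), adjusted p = 0.0109). Cenpf went against the rest of the list. It encodes a kinetochore protein that is also found at the nuclear envelope, and it had 9.85, 23.3 and 13.5 CPM after TAC, against 44.3, 41 and 49.6 CPM after sham (log2 fold change -1.54 ± 0.38 (SE), adjusted p = 0.0242, and -1.46, adjusted p = 0.0666 without the library labelled ctrl sham replicate 3). Of DNA replication and nucleotide supply genes 3 of 28 tested members rose and 0 fell (median 0.83). Those were Pole (1.25), Mcm6 (0.93) and Uhrf1, and Uhrf1, which helps to copy DNA methylation, had 14.4, 8.36 and 9.05 CPM after TAC, against 2.41, 2.88 and 3.62 CPM after sham (log2 fold change 1.83 ± 0.48 (SE), adjusted p = 0.0306). None of these 3 was called without the library labelled ctrl sham replicate 3 (adjusted p = 0.0760 for Pole, 0.0582 for Mcm6 and 0.0666 for Uhrf1), and the list's 1 call was Tyms, thymidylate synthase (1.54, adjusted p = 0.0477). Summed levels of the macrophage marker list were 344 to 486 CPM after TAC, against 271 to 318 CPM after sham, and those of the activated fibroblast list were 241 to 684 CPM after TAC, against 170.4 to 216 CPM after sham. Both moved with the division genes, and their part in this result was not tested.

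**Figure D3:**
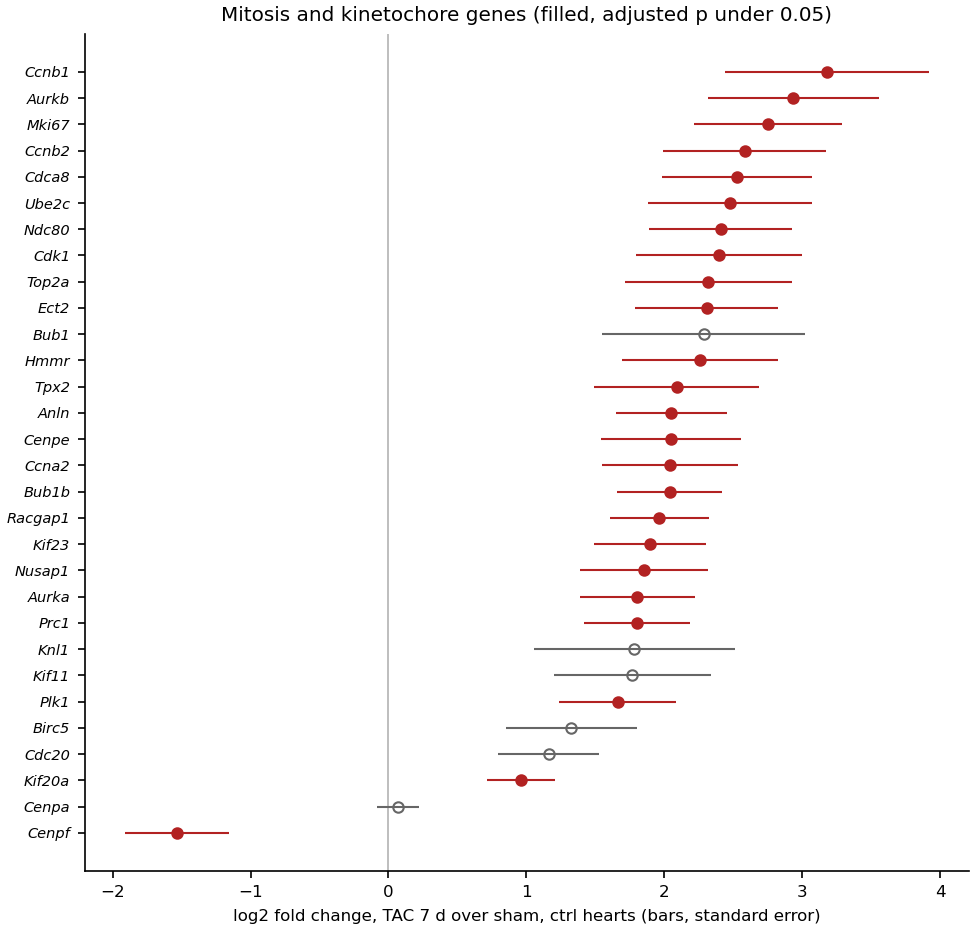
Log2 fold change of each of the 30 mitosis and kinetochore genes (x axis, TAC 7 d over sham, ctrl hearts), with standard errors as bars and filled points for genes called at an adjusted p under 0.05. All points but Cenpf lie to the right of 0, and Ccnb1 lies furthest at 3.18.

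Several matrix genes rose, led by proteins of the provisional matrix. Tnc, tenascin C, a matrix protein of wounds and development (chromosome 4, 63959785 to 64047015), had 34.7, 10.9 and 13.8 CPM after TAC, against 1.07, 1.09 and 1.23 CPM after sham, a 17.5-fold rise (log2 fold change 4.13 ± 0.72 (SE), adjusted p = 0.00688). Postn, periostin, the product of activated fibroblasts, had 323, 194 and 72.7 CPM after TAC, against 31.5, 31.3 and 38.4 CPM after sham (log2 fold change 2.54 ± 0.63 (SE), adjusted p = 0.0255). TAC replicate 1 was the highest library for both genes, and no TAC library reached down to sham. Fbn1, fibrillin 1, had 279.9, 204 and 149 CPM after TAC, against 49.7, 58.8 and 58.8 CPM after sham (log2 fold change 1.92 ± 0.38 (SE), adjusted p = 0.0107). Vcan, versican, had 49.5, 37.3 and 28.4 CPM after TAC, against 11, 14 and 12.7 CPM after sham (log2 fold change 1.62 ± 0.25 (SE), adjusted p = 0.00314). Fbln1, fibulin 1, fell instead, at 49.7, 41.8 and 41.8 CPM after TAC, against 89, 83.3 and 88.4 CPM after sham (log2 fold change -0.97 ± 0.18 (SE), adjusted p = 0.00878). The groups were separate for these 3 genes. Of matricellular proteins and glycoproteins 6 of 34 tested members rose and 1 fell (median 0.65), against 4.26% and 3.03% of all genes. Without the library labelled ctrl sham replicate 3, 3 were higher and 1 lower (median 0.62), against 1.98% and 1.2% of all genes.

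Among collagens 4 of 32 tested members rose and 0 fell (median 0.57), against 4.26% and 3.03% of all genes. Without the library labelled ctrl sham replicate 3, 2 were higher and 0 lower (median 0.61), against 1.98% and 1.2% of all genes. Col8a1, a short-chain collagen, had 186, 108 and 81.6 CPM after TAC, against 33.3, 32.2 and 29.6 CPM after sham (log2 fold change 1.98 ± 0.40 (SE), adjusted p = 0.0112). Col6a3, of beaded filaments, had 156, 79.9 and 139 CPM after TAC, against 39.7, 45.1 and 42.6 CPM after sham (log2 fold change 1.55 ± 0.31 (SE), adjusted p = 0.0105). The basement membrane chains Col4a1 (0.71) and Col4a2 (0.61) rose too. Neither was called without the library labelled ctrl sham replicate 3 (adjusted p = 0.0700 and 0.0927). The same held with the length trend removed (adjusted p = 0.0538 and 0.0786). The main fibrillar collagens did not pass: Col1a1 had 323, 172 and 181 CPM after TAC, against 133, 132 and 127 CPM after sham (log2 fold change 0.78 ± 0.52 (SE), adjusted p = 0.381), and Col3a1 had 998, 471 and 502 CPM after TAC, against 262, 246 and 271 CPM after sham (log2 fold change 1.34 ± 0.45 (SE), adjusted p = 0.0788), with TAC replicate 1 the highest in both. When the 6 libraries were fitted alone both passed, at adjusted p = 0.0233 for Col1a1 and 0.00539 for Col3a1. That fit called 17.9% of its 14366 genes, 1392 higher and 1177 lower, and of the collagens 17 higher and 0 lower. Of the enzymes that process and cross-link collagen 1 of 22 tested members rose and 0 fell (median 0.38). It was Loxl2, a lysyl oxidase, at 58.4, 50.7 and 39.4 CPM after TAC, against 17.6, 16.7 and 22 CPM after sham (log2 fold change 1.40 ± 0.27 (SE), adjusted p = 0.00945).

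Of matrix proteases and their inhibitors 4 of 27 tested members rose and 2 fell (median 0.40). Adamts8, a secreted metalloprotease, had 4.4, 1.96 and 5.1 CPM after TAC, against 0.802, 0.768 and 1.1 CPM after sham (log2 fold change 2.10 ± 0.39 (SE), adjusted p = 0.00878). Timp1, an inhibitor of matrix metalloproteases, had 10.2, 3.66 and 10.7 CPM after TAC, against 1.14, 1.67 and 1.29 CPM after sham (log2 fold change 2.58 ± 0.70 (SE), adjusted p = 0.0368), while Timp3 (-0.59) and the protease Htra3 (-0.86) fell. In this list 2 rose and 1 fell without the library labelled ctrl sham replicate 3, where Timp1 was at 2.54, adjusted p = 0.0993. In the TGF-beta, activin and BMP list 2 of 29 tested members rose and 1 fell (median 0.02). Bmp6, a bone morphogenetic protein, had 24.7, 23.4 and 26.9 CPM after TAC, against 50.2, 52.6 and 43.3 CPM after sham (log2 fold change -0.96 ± 0.17 (SE), adjusted p = 0.00788). It was lower in all 3 TAC libraries than in any sham library, and Gdf6 (2.04) and Fstl1 (1.30) rose. Only Bmp6 of this list was called without the library labelled ctrl sham replicate 3 (adjusted p = 0.0213), against 0.0874 for Gdf6 and 0.0949 for Fstl1.

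Of 12 general fibroblast markers 0 rose and 1 (Gsn, gelsolin, -0.85) fell, with a median of 0.28, and they summed to 1507 to 2159.9 CPM after TAC, against 2070.3 to 2194 CPM after sham. Gsn made up much of these sums, and the other 11 markers summed to 1495, 989 and 884 CPM after TAC, against 898, 844 and 915 CPM after sham, so the groups overlapped. A log2 fold change above 0 was seen in 8 of the 12. None was called without the library labelled ctrl sham replicate 3, and 4 were higher and 1 lower when the 6 libraries were fitted alone. That fit called 1392 of its 14366 genes higher and 1177 lower. The activated fibroblast list had Postn, Tnc and Cilp (2.18) as its only calls among 14 and had a median of 1.71. Without the library labelled ctrl sham replicate 3 it had 1 call. Some integrins, focal adhesion and cytoskeleton genes rose modestly: 10 of 41 tested members rose and 0 fell, with a median of 0.44 (4 higher and 0 lower without the library labelled ctrl sham replicate 3, median 0.45). Itga9, an integrin that binds tenascin C, had 169, 122 and 116 CPM after TAC, against 62.2, 72.4 and 59 CPM after sham (log2 fold change 1.07 ± 0.21 (SE), adjusted p = 0.0104). Flna, filamin A, had 364, 265 and 293 CPM after TAC, against 178, 167 and 179 CPM after sham (log2 fold change 0.82 ± 0.17 (SE), adjusted p = 0.0110). Vim, vimentin, had 469.8, 329 and 302 CPM after TAC, against 199.9, 184 and 224 CPM after sham (log2 fold change 0.86 ± 0.20 (SE), adjusted p = 0.0187). The talins Tln1 (0.77) and Tln2 (0.44), which link integrins to actin, the cytoplasmic actins Actb (0.49) and Actg1 (0.58), the tubulin Tubb6 (0.50) and the annexins Anxa2 (0.67) and Anxa5 (0.52) made up the rest of the 10. The cytoplasmic actins have processed copies elsewhere in the genome, so their levels are uncertain.

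The chemokines Ccl2, Ccl7 and Ccl12 rose after TAC. In the list of chemokines, cytokines and their receptors 6 of 34 tested members rose and 0 fell (median 0.48). Of all genes 4.26% were higher and 3.03% lower. Without the library labelled ctrl sham replicate 3, 5 were higher and 0 lower (median 0.54), against 1.98% and 1.2% of all genes. A log2 fold change above 0 was seen in 26 of the 34 and below 0 in 8. The lowest was that of Ccl3 (-2.07), which was not called. Ccl7, a ligand of CCR2, had 4.84, 3.27 and 6.56 CPM after TAC, against 1.67, 0.576 and 0.969 CPM after sham (log2 fold change 2.19 ± 0.41 (SE), adjusted p = 0.00937). Ccl12, a mouse ligand of the same receptor, had 2.84, 1.31 and 3.31 CPM after TAC, against 0.401, 0.512 and 0.646 CPM after sham (log2 fold change 2.24 ± 0.50 (SE), adjusted p = 0.0167). Ccl2, the third ligand of this kind, rose as well (log2 fold change 1.82 ± 0.48 (SE), adjusted p = 0.0326). These are low levels with separate groups. Tnfrsf12a, the receptor of the cytokine TWEAK, had 188, 147 and 121 CPM after TAC, against 43.6, 54.3 and 38.4 CPM after sham (log2 fold change 1.74 ± 0.40 (SE), adjusted p = 0.0182). Among 16 macrophage markers 2 rose and 0 fell, with a median of 0.75. Cd68, a lysosomal protein of macrophages, had 14.4, 9.6 and 15.9 CPM after TAC, against 4.68, 5.25 and 5.55 CPM after sham (log2 fold change 1.36 ± 0.29 (SE), adjusted p = 0.0133). Mrc1, the mannose receptor of resident macrophages, had 42.7, 30.5 and 33.8 CPM after TAC, against 20.6, 21.2 and 22.2 CPM after sham (log2 fold change 0.74 ± 0.16 (SE), adjusted p = 0.0160). Both passed also without the library labelled ctrl sham replicate 3, at adjusted p = 0.0394 and 0.0441. Of complement and coagulation genes 2 of 23 tested members rose and 0 fell (median 0.16). C4b, a complement component, had 62.1, 22.7 and 41.1 CPM after TAC, against 10.6, 17.2 and 12.7 CPM after sham (log2 fold change 1.64 ± 0.29 (SE), adjusted p = 0.00788).

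The interferon-stimulated genes that rose were highest in TAC replicate 3. Of that list 4 of 24 tested members rose and 0 fell (median 0.81), against 4.26% and 3.03% of all genes. Without the library labelled ctrl sham replicate 3, 1 was higher and 0 lower (median 0.69), against 1.98% and 1.2% of all genes. Cxcl10, a chemokine for T cells that interferon induces, had 2.95, 2.42 and 12.2 CPM after TAC, against 0.401, 0.192 and 0.323 CPM after sham (log2 fold change 4.23 ± 0.86 (SE), adjusted p = 0.0110). Mx1, an antiviral GTPase, had 3.17, 1.63 and 9.81 CPM after TAC, against 0.535, 0.833 and 0.517 CPM after sham (log2 fold change 2.94 ± 0.64 (SE), adjusted p = 0.0150). Ifit2, which binds viral RNA, had 37.1, 28.7 and 59.1 CPM after TAC, against 20.1, 24.4 and 20.9 CPM after sham (log2 fold change 0.93 ± 0.20 (SE), adjusted p = 0.0149). In each of them, and in Oasl1 (4.4, 3.53 and 12.7 CPM after TAC, against 2.74, 1.41 and 1.81 CPM after sham), replicate 3 was the highest of the TAC libraries, and the other TAC libraries were above sham. Without that replicate the log2 fold changes were 3.11, adjusted p = 0.0336 for Cxcl10, 1.93, adjusted p = 0.0519 for Mx1, 0.59, adjusted p = 0.0421 for Ifit2 and 1.00, adjusted p = 0.147 for Oasl1. The T cell receptor complex genes Cd3e, Cd3d and Cd3g were too low to test, with at most 4 counts in any of the 6 libraries, and so were the neutrophil markers S100a8 and Ly6g.

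Amino acid and stress genes that ATF4 is known to activate rose in part. Of that list 5 of 31 tested members rose and 0 fell (median 0.16), against 4.26% and 3.03% of all genes. Without the library labelled ctrl sham replicate 3, 3 were higher and 0 lower (median 0.14), against 1.98% and 1.2% of all genes. Mthfd2, a mitochondrial folate enzyme, had 4.95, 5.16 and 4.4 CPM after TAC, against 1.54, 1.67 and 1.49 CPM after sham (log2 fold change 1.63 ± 0.27 (SE), adjusted p = 0.00567), with 3 tight TAC values, and it was called in every fit that left out 1 of the 6 libraries. Psat1, of serine synthesis, had 8.13, 3.92 and 5.1 CPM after TAC, against 2.94, 1.86 and 2.65 CPM after sham (log2 fold change 1.21 ± 0.27 (SE), adjusted p = 0.0167). Aars, which charges alanine onto its tRNA, had 87.2, 94.8 and 96.5 CPM after TAC, against 67.9, 73.1 and 57.9 CPM after sham (log2 fold change 0.49 ± 0.09 (SE), adjusted p = 0.00945), and Aldh18a1 of proline synthesis (0.76) and Cars, the cysteine counterpart of Aars (0.35), also rose. With the length trend removed 2 members of this list were called higher and 0 lower. Aars, Aldh18a1 and Cars were then not called (adjusted p = 0.0743, 0.0508 and 0.134). In the list of endoplasmic reticulum chaperones and folding enzymes 0 of 29 rose and 2 fell (median 0.0037). Herpud1, of the degradation of misfolded proteins, had 106, 137 and 134 CPM after TAC, against 307, 289.7 and 213 CPM after sham (log2 fold change -1.10 ± 0.26 (SE), adjusted p = 0.0197). Dnajb9, a co-chaperone of BiP, had 32.5, 32.9 and 38.1 CPM after TAC, against 54.2, 49.1 and 46.8 CPM after sham (log2 fold change -0.54 ± 0.12 (SE), adjusted p = 0.0150). Both were lower in all TAC libraries than in any sham library, and were called also without the library labelled ctrl sham replicate 3.

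Of antioxidant enzymes 2 of 36 tested members rose and 2 fell (median -0.02). That is near the shares over all genes, 4.26% higher and 3.03% lower. Hmox1, heme oxygenase 1, had 14.5, 9.93 and 21.6 CPM after TAC, against 7.95, 5.96 and 8.07 CPM after sham (log2 fold change 1.07 ± 0.31 (SE), adjusted p = 0.0455). Fth1, the ferritin heavy chain, which stores iron, had 852, 878 and 1004 CPM after TAC, against 1339.5, 1402 and 1260.5 CPM after sham (log2 fold change -0.55 ± 0.14 (SE), adjusted p = 0.0310). Fth1 has processed copies elsewhere in the genome that can share its reads, so its level is uncertain. Gsta3, a glutathione transferase, fell (-1.30) and G6pdx, of NADPH supply, rose (0.70). No member was called without the library labelled ctrl sham replicate 3, where the adjusted p was 0.0874 for Hmox1, 0.0610 for Fth1, 0.0744 for Gsta3 and 0.105 for G6pdx. In the p53 list 3 of 25 tested members rose and 1 fell (median 0.13). Cdkn1a, the cell cycle inhibitor p21, had 35.3, 51.5 and 34.7 CPM after TAC, against 12.4, 19.98 and 6.26 CPM after sham (log2 fold change 1.65 ± 0.48 (SE), adjusted p = 0.0484), and Sesn1, sestrin 1, had 100.1, 95.4 and 102 CPM after TAC, against 172, 169 and 131 CPM after sham (log2 fold change -0.67 ± 0.16 (SE), adjusted p = 0.0229). In that list 1 rose and 1 fell without the library labelled ctrl sham replicate 3, with Cdkn1a at 1.32, adjusted p = 0.154 and Sesn1 at -0.78, adjusted p = 0.0316.

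The 12 largest rises among called genes, by the rule used for naming genes, taken among genes with a mean log2 CPM of at least 1 and with groups that do not overlap, hold 6 genes from outside the lists. Spag5, given above, is one. Hipk2, a protein kinase of the p53 and stress pathways (chromosome 6, 38694390 to 38876165), had 61.8, 123 and 52.3 CPM after TAC, against 7.35, 7.43 and 7.69 CPM after sham. Sham levels were nearly equal and the lowest TAC library was far above them, a 10.6-fold rise (log2 fold change 3.40 ± 0.37 (SE), adjusted p = 0.000299). Lrp8, an apolipoprotein E and reelin receptor, had 9.74, 2.68 and 4.27 CPM after TAC, against 0.334, 0.192 and 0.258 CPM after sham (log2 fold change 4.39 ± 0.86 (SE), adjusted p = 0.0105). Lman1l, a lectin related to a cargo receptor of the secretory pathway, had 4.23, 4.18 and 3.7 CPM after TAC, against 0.201, 0.384 and 0.388 CPM after sham (log2 fold change 3.60 ± 0.48 (SE), adjusted p = 0.00127). Ccdc63, known from sperm formation in mice, had 5.01, 3.92 and 8.28 CPM after TAC, against 0.802, 0.64 and 0.452 CPM after sham (log2 fold change 3.17 ± 0.54 (SE), adjusted p = 0.00627). These 3 genes were below 1 CPM in every sham library and above it in every TAC library. Serpina3n, a secreted protease inhibitor of injury responses, had 70.9, 20.6 and 42.6 CPM after TAC, against 6.35, 5.00 and 7.49 CPM after sham (log2 fold change 2.83 ± 0.71 (SE), adjusted p = 0.0263). Edn3, endothelin 3, one of 2 calls among 25 genes of angiotensin, adrenergic, endothelin and natriuretic signalling, had 9.63, 5.81 and 9.37 CPM after TAC, against 1.00, 0.512 and 1.23 CPM after sham (log2 fold change 3.17 ± 0.57 (SE), adjusted p = 0.00788). The other, Grk5, a kinase that turns down G protein-coupled receptors, had 42.9, 42.4 and 38 CPM after TAC, against 20.4, 24.7 and 23.1 CPM after sham (log2 fold change 0.85 ± 0.16 (SE), adjusted p = 0.00955). For these genes the TAC and sham libraries were apart.

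Among the largest falls, Inmt, which methylates indolamines, had 0.612, 1.05 and 0.765 CPM after TAC, against 7.42, 2.75 and 6.91 CPM after sham (log2 fold change -2.82 ± 0.44 (SE), adjusted p = 0.00367). Ces1d, a carboxylesterase, had 19.7, 39 and 34 CPM after TAC, against 139, 133 and 125 CPM after sham (log2 fold change -2.10 ± 0.57 (SE), adjusted p = 0.0355). Arrdc2, an arrestin-domain protein, had 6.9, 6.53 and 6.24 CPM after TAC, against 22.1, 48.4 and 13.9 CPM after sham (log2 fold change -2.10 ± 0.43 (SE), adjusted p = 0.0122). Arrdc2 varied widely among the sham libraries, and even its lowest sham value was above all TAC values. Il2ra, a chain of the interleukin 2 receptor, had 1.00, 0.719 and 0.765 CPM after TAC, against 4.08, 3.78 and 3.94 CPM after sham (log2 fold change -2.23 ± 0.47 (SE), adjusted p = 0.0132). Lmod1, leiomodin of smooth muscle, had 2.28, 1.57 and 2.74 CPM after TAC, against 9.42, 9.48 and 5.81 CPM after sham (log2 fold change -1.90 ± 0.44 (SE), adjusted p = 0.0183). Of mural cell markers, 0 of 12 rose and 0 fell. Tbc1d10c, Ankrd63 and Opn4 completed this set at log2 fold changes of -1.79, -1.69 and -1.67.

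Some markers of nerves and glia fell after TAC. Sox10, the transcription factor of neural crest glia, had 1.39, 0.392 and 0.701 CPM after TAC, against 3.07, 4.67 and 3.04 CPM after sham (log2 fold change -2.09 ± 0.51 (SE), adjusted p = 0.0244). Dbh, which makes noradrenaline in sympathetic nerves, had 1.67, 1.7 and 0.637 CPM after TAC, against 6.02, 4.35 and 3.1 CPM after sham (log2 fold change -1.74 ± 0.46 (SE), adjusted p = 0.0336). Both were lower in every TAC library than in any sham library. Of 6 tested markers of this kind, 0 rose and 3 fell, or 2 without the library labelled ctrl sham replicate 3. All 6 summed to 8.36 to 13.7 CPM after TAC, against 18 to 24.1 CPM after sham. Sox10 and Dbh held without the library labelled ctrl sham replicate 3 (adjusted p = 0.0473 and 0.0467).

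The lists not yet described had few calls, to be read against 4.26% higher and 3.03% lower among all tested genes. Of proteoglycan and hyaluronan genes 1 of 18 tested members rose and 0 fell (median 0.48), the riser being Vcan. For heat shock and mitochondrial chaperones the numbers were 1 higher and 0 lower of 22, for cytosolic ribosomal proteins 0 and 2 of 35, and for the proteasome 0 and 2 of 31. Their medians were 0.06, -0.12 and -0.15. Immediate-early and growth response genes had 1 riser, Egr3 (1.69), and 1 faller, Cebpb (-1.12), of 31 (median 0.08). Autophagy and muscle atrophy genes had Wipi1 (0.40) higher and Tfeb (-0.43) lower of 23 (median -0.11), and angiogenesis and hypoxia genes had Pdgfa (-0.41) lower of 31 (median 0.01). Iron and heme genes had 2 higher and 1 lower of 15 (median 0.08). The receptor list that held Edn3 and Grk5 had a median of -0.13. No member was called in the dystrophin glycoprotein complex (17 tested, median 0.08) or among long noncoding RNAs (17 tested, median -0.24). Without the library labelled ctrl sham replicate 3 there was no call among the heat shock, proteasome, angiogenesis or iron and heme genes, ribosomal proteins had 1 lower, and Egr3 and Tfeb were not called (adjusted p = 0.131 and 0.0597).

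Other cell type lists had few tested markers and few or no calls. As 7.29% of all tested genes were called, lists so short would hold few calls in any case. No marker of endothelial cells (12 tested), neutrophils (3), T and NK cells (2), mast cells (5), adipocytes (4), epicardium and mesothelium (4) or erythroid cells (6) passed. B cell markers had 1 call of 6, Blk (1.49), which was lost without the library labelled ctrl sham replicate 3 (adjusted p = 0.0569). Atrial markers had 1 of 6, Tbx5, and skeletal muscle markers 1 of 5, Acta1. The 4 tested sex-linked genes had no call.

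Longer genes tended to be higher after TAC. Across the 15535 tested genes, which are not independent replicates, Spearman's correlation of the log2 fold change with the deposited gene length was 0.229. Among the 3107 longest genes (7140 bases and over) 303 were called higher and 51 lower, with a median of 0.13. Among the 3107 shortest (up to 2033 bases) the numbers were 48 and 117, with a median of -0.14. Called genes had a median length of 6626.5 bases where higher and 3397 bases where lower, against 4043 bases over all tested genes. Within libraries, the same correlation of length with the level relative to the average library was 0.103 to 0.248 after TAC, and -0.152 to 0.0055 after sham. With the length trend removed, 948 genes were called (6.1%), 416 higher (2.68%) and 532 lower (3.42%), and 793 of them were among the 1132 with the same direction. Mitosis genes then had 23 higher and 1 lower, fetal program genes 5 and 0, collagens 2 and 0, and the list of ATF4 genes 2 and 0. By the same measure the ctrl TAC 3 d libraries were at -0.219 to 0.0082, the cKO TAC 3 d libraries at -0.30 to -0.169, the cKO TAC 7 d libraries at 0.15 to 0.211, and the cKO sham libraries at -0.0938 to -0.0771. Every library of 7 days of TAC, ctrl or cKO, was thus above every other library, and those of 3 days overlapped with or lay below sham. The part of length in the changes was tested no further than by removing the trend.

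**Figure D4:**
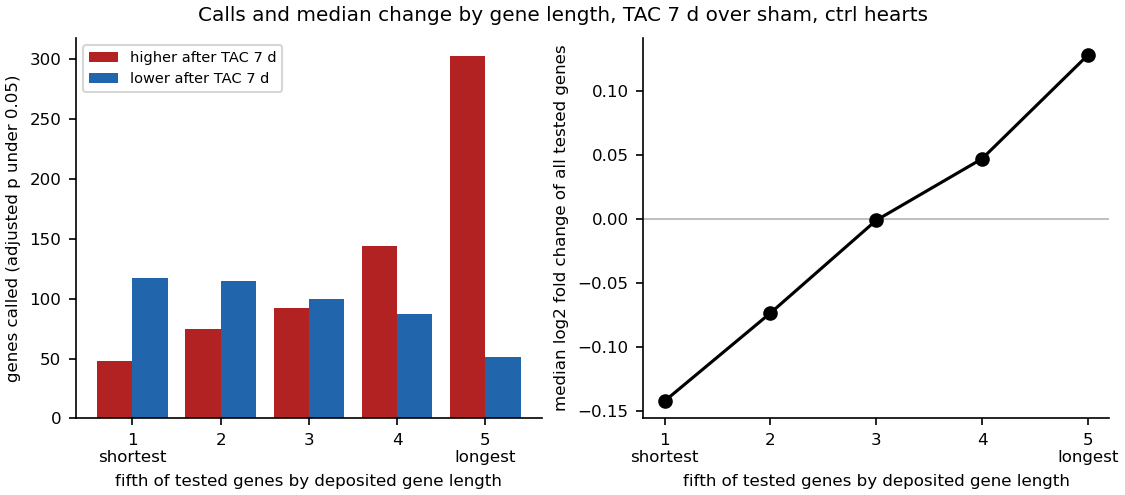
Genes called higher (red) and lower (blue) after TAC 7 d in 5 equal groups of the tested genes ordered by deposited gene length (left, y axis in genes), and the median log2 fold change of all tested genes in the same groups (right). In the longest group there are 303 higher and 51 lower calls, and the median is -0.14 in the shortest group and 0.13 in the longest.

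Some genes that were high at 7 days were near the sham level at 3 days, and others had been higher at 3 days. Between ctrl TAC 7 d and ctrl TAC 3 d, 2293 genes were called (14.8%), 1080 higher at 7 days (6.95%) and 1213 lower (7.81%). The ctrl TAC 3 d replicate 3 library stood apart from the others of its group, with 10.6% of its counts from mitochondrial transcripts, and without it 838 were called, 434 higher and 404 lower. There were 544 calls without ctrl TAC 7 d replicate 2 and 1186 without replicate 3. With only the 6 libraries compared, 39 were called, 35 higher and 4 lower. Length differed here too: across genes the Spearman correlation of this log2 fold change with gene length was 0.19, and with the trend removed 1703 genes were called. The 2 comparisons share the TAC 7 d libraries. Hipk2 was at 7.35, 7.43 and 7.69 CPM after sham, 8.53, 5.18 and 9.9 CPM at 3 days and 61.8, 123 and 52.3 CPM at 7 days of TAC (7 d over 3 d, 3.33 ± 0.36 (SE), adjusted p = 0.000143). Its values at 3 days lay around those of sham. Hif1an, which encodes the oxygen-sensing hydroxylase FIH, had 63.4, 59 and 62.1 CPM after sham, 56.1, 57.7 and 54.9 CPM at 3 days and 116, 124 and 114 CPM at 7 days (1.07 ± 0.09 (SE), adjusted p = 1.70e-05). It also had the smallest adjusted p of all genes against sham (log2 fold change 0.94 ± 0.09 (SE), adjusted p = 0.000115). Rad54l2, a DNA helicase, had 16.6, 14.9 and 16.1 CPM, 15.1, 14.3 and 14.6 CPM and 29.3, 28.9 and 28.1 CPM in the same order (0.97 ± 0.09 (SE), adjusted p = 6.37e-05). Ppp1r12b, a subunit of myosin phosphatase, had 266, 302 and 282 CPM, 227, 240.3 and 181 CPM and 466, 501 and 474 CPM (1.15 ± 0.12 (SE), adjusted p = 0.000122). Slc8a1 had 139, 120.1 and 199 CPM at 3 days (7 d over 3 d, 0.85 ± 0.26 (SE), adjusted p = 0.0364). In these 5 genes every library at 7 days lay above every library at 3 days and after sham. Hipk2 (8836 bases), Hif1an (6606 bases), Rad54l2 (11828 bases) and Ppp1r12b (14983 bases) are longer than the median tested gene and Slc8a1 (2934 bases) is shorter. With the length trend removed the 5 log2 fold changes over 3 days were 3.25, 1.04, 0.84, 0.97 and 0.97 in that order, and all were called. With the 6 libraries alone the first 4 were called, and Slc8a1 had an adjusted p of 0.0867.

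Many matrix genes were lower at 7 days than at 3. Collagens had 0 higher and 17 lower of 32, median -1.05, matricellular proteins 0 higher and 19 lower of 34, median -1.39, and activated fibroblast markers 0 higher and 11 lower of 14, median -2.52. Without ctrl TAC 3 d replicate 3 the numbers higher and lower were 0 and 3, median -0.61 for collagens, 0 and 6, median -0.75 for matricellular proteins and 0 and 3, median -1.32 for activated fibroblast markers, so most of these calls needed that library. The median over all tested genes was -0.01. Postn had 688, 477 and 3206 CPM at 3 days (-2.89 ± 0.64 (SE), adjusted p = 0.00921). Tnc had 51.2, 36.3 and 151 CPM at 3 days (-2.002 ± 0.54 (SE), adjusted p = 0.0230). Nppa had 1527, 1009 and 3119 CPM at 3 days (-2.58 ± 0.59 (SE), adjusted p = 0.0114), above all of its 7-day values. With the 6 libraries alone the adjusted p was 0.114 for Postn, 0.125 for Tnc and 0.0734 for Nppa. Acta1, by contrast, had 2182, 3689 and 1492 CPM at 3 days, which overlapped its 7-day values (0.00061 ± 0.40 (SE), adjusted p = 0.999). Mitosis genes had 0 higher and 7 lower of 30, median -1.10 (without ctrl TAC 3 d replicate 3, 0 and 2, median -1.14). Energy regulators had 8 higher and 0 lower of 18, median 0.56 (without it, 4 and 0, median 0.35), and ribosomal proteins 0 higher and 22 lower of 35, median -0.40 (without it, 0 and 6, median -0.34).

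**Figure D5:**
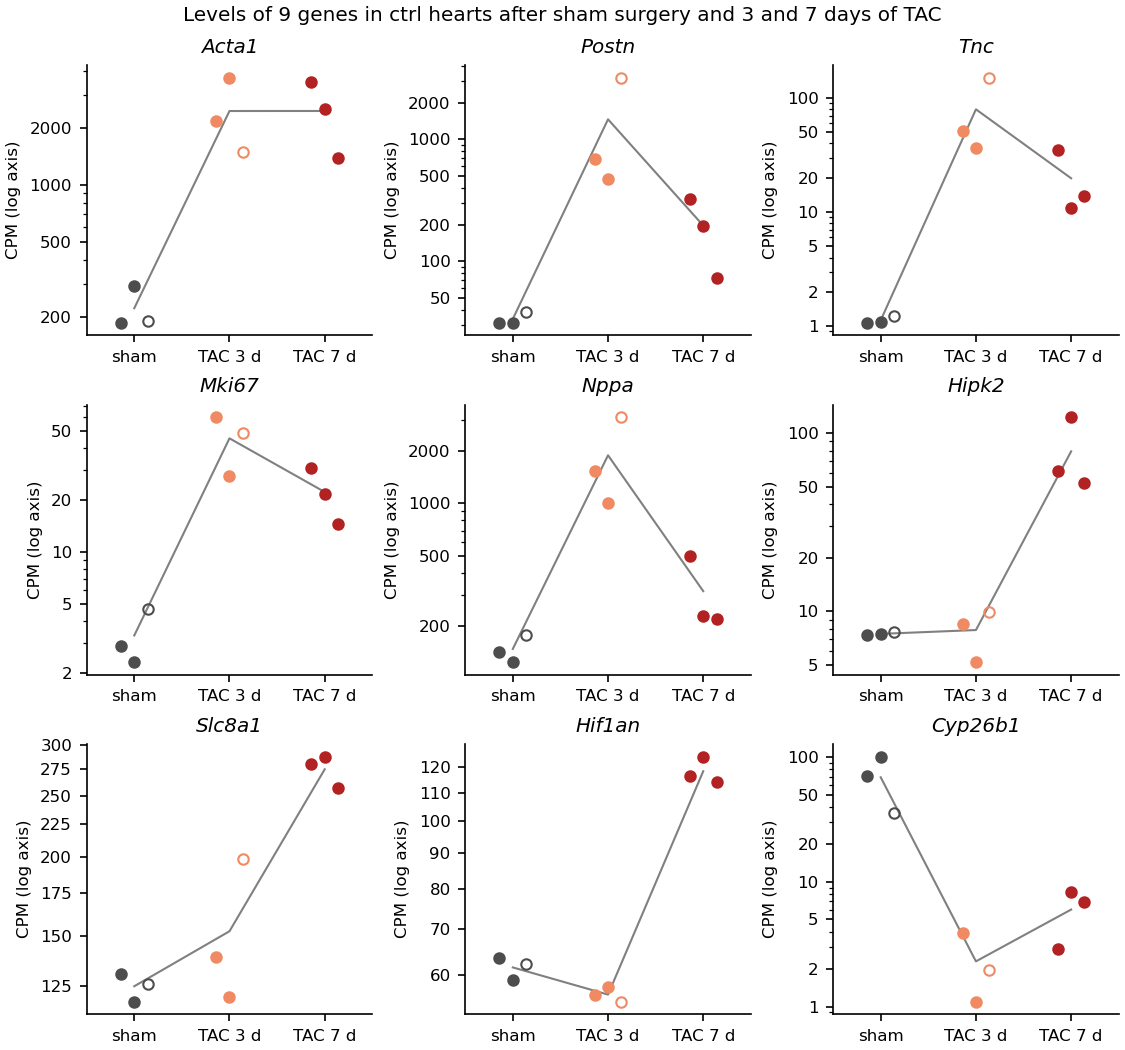
Levels of 9 genes in CPM (y axis, log scale) in ctrl hearts after sham, 3 days and 7 days of TAC. Points are libraries and lines join the means of 3 libraries, with open points for the libraries labelled ctrl sham replicate 3 and ctrl TAC 3 d replicate 3. Hipk2 and Hif1an are near the sham level at 3 days and high at 7, Postn, Tnc and Nppa are highest at 3 days, and Cyp26b1 is low at both.

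The response to 7 days of TAC was not shown to differ between cKO and ctrl hearts for any gene in edgeR's test of the interaction: 0 of 15535 genes passed (0%), 682 had an unadjusted p under 0.05, and DESeq2 called 1, Acsm5, a mitochondrial acyl-CoA synthetase family member. With no filter on low counts edgeR called 96 of 30584. Without the library labelled ctrl sham replicate 3 edgeR again called 0, with 519 at an unadjusted p under 0.05. In the cKO hearts themselves, TAC 7 d against sham gave 3380 calls (21.8%). Hipk2 had 62.1, 158 and 96.3 CPM in cKO TAC 7 d hearts, against 6.73, 9.68 and 10.4 CPM in cKO sham hearts. Acta1 had 2655, 2494 and 2131 CPM in cKO TAC 7 d hearts, against 343, 687 and 335 CPM in cKO sham hearts. Myh7 had 2344, 8171 and 1239 CPM in cKO TAC 7 d hearts, against 349.8, 341 and 559.9 CPM in cKO sham hearts, and its interaction had an adjusted p of 0.891.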

How the data were processed

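RNA from mouse hearts was extracted with the Quick-RNA MicroPrep kit and made into TruSeq RNA libraries from 1 µg of total RNA, per the labels' protocols. The values used are raw read counts per gene, as the authors deposited them in 1 table of all mouse libraries. The submitters' processing notes name Bowtie 0.12.2 and the build mm9, without a role, and the counting tool is not given in the sources used here. For 96.1% of the tested genes found in GENCODE M21 (GRCm38) the position there is the deposited one, so coordinates are given on GRCm38. The authors' fold changes and adjusted p-values were not used.

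Counts of 18 libraries in 6 groups were fitted in 1 model with edgeR 4.0.16 in R 4.3.3 (TMM scaling, filterByExpr, quasi-likelihood test), and p-values were adjusted over the 15535 genes that passed the filter, which hold 99.91% of the counts, at a threshold of 0.05. Levels are TMM-scaled CPM, and a standard error is the log2 fold change divided by the square root of its F statistic. Alternatives were DESeq2 1.42.0, other scaling, no filter, fewer libraries, a replicate block, leaving out each library, and a loess of log levels on gene length (span 0.3, prior count 2) subtracted per library. The procedure was tested on simulated data. Promoter windows are the first RefSeq window of each gene.

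The comparison and the gene lists were chosen with earlier results of these data known. Genes named are a fixed set of stress genes, the 12 largest rises and falls among called genes with a mean log2 CPM of at least 1 and groups that do not overlap (gene models without names passed over), up to 4 called members of each list with the smallest adjusted p, the lowest and highest member of each list, and the 6 genes with the smallest adjusted p in each other comparison. From these the text gives a selection, and some are not reported here. Actb, Actg1, Ankrd1, Anxa2, Anxa5, Cars, Ccl2, Col1a1, Col3a1, Irx3, Mef2c, Nmrk2, Per1, Tbx20, Timp3, Tln2, Tubb6, Tyms and Acsm5 fall outside it and were chosen after their values were seen.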

Additional observations from a re-analysis of the deposited data

How the results depend on the processing

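For ctrl TAC 7 d against ctrl sham, the 1132 calls became 1758 with DESeq2, 1715 with no filter on low counts, 2569 with the 6 libraries fitted alone, 2261 with the 12 libraries of sham and TAC 7 d, and 2869 without the 3 libraries that stood apart. Leaving out single libraries gave 105 to 905 calls, and 306 were left with the length trend removed when the library labelled ctrl sham replicate 3 was also left out, an alternative chosen after seeing the data. The interaction had 1 call with DESeq2 and 96 with no filter on low counts, against 0 in each of the other settings run. For TAC 7 d against TAC 3 d, the 2293 calls became 39 with those 6 libraries alone, 1295 with the 9 ctrl libraries, 1366 with the length trend removed and a replicate block, and 544 to 3199 when single libraries were left out. The causes were not tested.

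Same-numbered libraries of TAC 7 d and sham had correlations of 0.00275, 0.0674 and -0.0524 in their deviations from the group means. Pairs with unlike numbers had -0.0829 to 0.0845. With 3 libraries a group these values cannot settle whether the numbers pair the libraries. With the replicate block 1019 genes were called against sham. Of the 129 called genes named in the text, 111 kept their call with the block, 113 with library sizes in place of TMM, 109 with the length trend removed, 129 with DESeq2, and 23 to 89 when 1 library was left out. Myh6 changed sign, to 0.055 with library sizes, and ranged from -0.076 to 0.037 when single libraries were left out. With 3 libraries a group, differences smaller than the spread between libraries were not detectable.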
